A study of Mus musculus with 10 samples.

Results

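The reactive astrocyte genes are a set of 10 transcripts (Gfap, Vim, Serpina3n, Cp, Lcn2, Osmr, Cd44, Steap4, Timp1 and S1pr3) commonly used to recognise reactive astrocytes. They were chosen by name, with earlier results of these data known. All 10 were found among the 47632 gene rows of the table. RNA was sequenced from the striatum of mice harvested at 11 weeks of age; this deep forebrain region is the one most affected in Huntington's disease. The 10 libraries comprised 5 from hemizygous R6/2 mice, a transgenic line that carries the first exon of human huntingtin with an expanded CAG repeat, and 5 from isogenic wild-type controls. The sources used here do not give the promoter of the transgene, the repeat length or the sex of the mice. They also do not say whether each library came from its own animal, and the p-values then reflect only how these libraries vary, part of which may be technical. The comparison asks which of these genes differ between the disease model and its controls. Values are FPKM (by name, fragments per length of transcript and per number of fragments mapped), a level that is comparable between genes because it is set per length. How these libraries were scaled against one another was not stated.

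Astrocytes are the glial cells that clear glutamate and potassium, feed neurons and cover blood vessels. After injury, infection or neurodegeneration they become reactive: they build more intermediate filament, secrete protease inhibitors and iron-handling proteins, and respond to cytokines of the interleukin-6 family through the STAT3 transcription factor. The genes here cover those roles, with Gfap and Vim in the cytoskeleton, Serpina3n and Timp1 as secreted inhibitors, Cp, Steap4 and Lcn2 in iron and copper handling, and Osmr, Cd44 and S1pr3 as surface receptors.

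The promoter sequences of the 2 members that rose, Serpina3n and Cp, and of Gfap, the classical marker, are shown so that the letters searched for STAT-type and AP-1-type motifs can be read beside the levels of these genes. Each is the RefSeq window (GRCm38.p6) from 250 bases before to 50 bases after a transcription start, 5′ to 3′ on the gene's strand. Capitals mark matches to the STAT-type motif TTCNNNGAA or the AP-1-type motif TGANTCA, searched on both strands, which do not overlap one another in any of these windows.
Serpina3n, chr12:104406458-104406757, plus strand: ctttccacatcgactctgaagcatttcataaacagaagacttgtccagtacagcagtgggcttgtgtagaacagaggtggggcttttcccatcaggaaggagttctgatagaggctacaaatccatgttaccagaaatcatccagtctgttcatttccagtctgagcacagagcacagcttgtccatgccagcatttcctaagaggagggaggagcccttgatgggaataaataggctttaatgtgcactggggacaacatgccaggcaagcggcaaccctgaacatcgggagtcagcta
Cp, chr3:19956804-19957103, plus strand: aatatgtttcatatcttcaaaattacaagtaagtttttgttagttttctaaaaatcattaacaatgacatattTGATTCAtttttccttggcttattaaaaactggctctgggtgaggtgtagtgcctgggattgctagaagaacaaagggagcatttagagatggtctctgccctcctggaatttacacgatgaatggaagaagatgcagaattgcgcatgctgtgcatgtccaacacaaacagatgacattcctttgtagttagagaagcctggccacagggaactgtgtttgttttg
Gfap, chr11:102897151-102897450, minus strand: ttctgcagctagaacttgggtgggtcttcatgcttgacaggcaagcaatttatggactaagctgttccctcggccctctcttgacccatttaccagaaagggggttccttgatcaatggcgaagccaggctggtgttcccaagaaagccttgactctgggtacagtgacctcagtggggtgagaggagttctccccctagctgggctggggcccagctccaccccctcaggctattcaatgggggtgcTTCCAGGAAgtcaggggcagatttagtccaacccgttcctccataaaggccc

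All 10 genes had at least 1 such window, and Cp had 2, so that 11 windows were searched. The Gfap window held the STAT-type match TTCCAGGAA, beginning 2 bases before the start site. The Steap4 window held TTCCCGGAA, beginning 116 bases before its start site. The motif TGATTCA of the AP-1 type stood in the upstream Cp window and in the Osmr window. Neither motif was found in the window of Serpina3n, Vim, Lcn2, Cd44, Timp1 or S1pr3, which says only that these letters are not in these 300 bases. Over the 32851 windows of this length in the table, 8.3% held the STAT-type motif and 7.81% the AP-1-type motif. A match is a description of the sequence and not evidence of binding.

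Of the 10 genes, 2 rose in R6/2 striatum: Serpina3n by 2.55-fold and Cp by 1.73-fold in mean FPKM. The filament genes Gfap and Vim and the cytokine receptor gene Osmr did not pass the test. Cd44 was lower in every R6/2 library than in every control, but it lay under the level at which genes were tested. Its control mean, 1.22 FPKM, was above that level, and its R6/2 mean, 0.210 FPKM, brought its mean over all libraries to 0.715 FPKM. The counts and the median of the tested genes given below therefore leave Cd44 out because it was low in R6/2. Changes were tested with limma on log2(FPKM + 1) in genes that averaged 1 FPKM or more across all libraries, with a Benjamini-Hochberg adjusted p of 0.05 as the threshold. Only 5 of the 10 genes reached that level. Of these 5, 2 were called higher and 0 lower, where over the 15905 genes tested 5% were called higher and 9.11% lower. The 5 tested genes had a median log2 change of 0.45, against 0.00 over all genes tested. Without the filter on low values the median over all 10 genes was 0.13, and 0.29 with a pseudocount of 0.1 FPKM as well. In whole tissue, fewer cells of a type and less RNA per cell cannot be told apart.

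**Figure D1:**
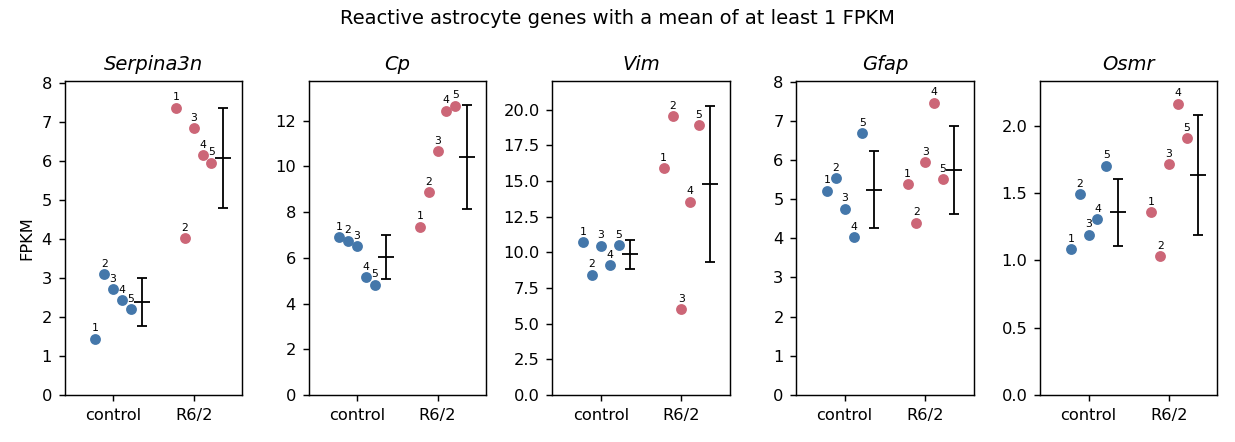
FPKM (vertical axes, linear, from 0) of the 5 reactive astrocyte genes that averaged 1 FPKM or more, in 5 control (blue) and 5 R6/2 (red) libraries, numbered by replicate, with the mean and SD to the right of each group. The groups do not overlap for Serpina3n and Cp, while in Vim R6/2 3 lies below every control.

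Serpina3n, which encodes a secreted serine protease inhibitor (ENSMUSG00000021091.8, GRCm38 chromosome 12, 104406729 to 104414329), was at 1.45, 3.10, 2.72, 2.44 and 2.21 FPKM in Controls 1 to 5. It was at 7.38, 4.03, 6.86, 6.16 and 5.96 FPKM in R6/2 1 to 5. All R6/2 libraries were above all controls, with R6/2 2 nearest to them. The mean rose from 2.39 ± 0.621 to 6.08 ± 1.28 FPKM (SD, n = 5), a log2 change of 1.06 (SE 0.174, limma adjusted p = 0.00301), the largest among the 5 tested genes.

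Serpina3n belongs to a cluster of near relatives on the same chromosome, and reads from such copies can be misassigned. Of the 2015 distinct stretches of 50 bases in its transcript, 6.90% also occur in transcripts of other genes, all of them Serpina3 relatives, 1 of which is a pseudogene. The pseudogene, Serpina3e-ps, shares the most (2.68%), and its level is not given here. The 10 relatives examined were close to or at 0. Of 10 relatives, Serpina3a, Serpina3b, Serpina3j and Serpina3k were listed at 0 in every library, and together the 10 summed to at most 0.185 FPKM in controls and 0.330 FPKM in R6/2. Serpina3m was listed at 0 in all controls and in R6/2 2, and at 0.233, 0.161, 0.266 and 0.182 FPKM in R6/2 1, 3, 4 and 5. Serpina3c, Serpina3f, Serpina3g, Serpina3h and Serpina3i were at most at 0.131 FPKM in any library. Without the filter on low values and with a pseudocount of 0.1 FPKM, 1 of the 6 relatives with a value was called higher (limma). In that fit 663 of 29024 genes were called higher.

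Cp, the gene of ceruloplasmin, a copper-carrying ferroxidase that astrocytes make to let iron leave cells (ENSMUSG00000003617.16, chromosome 3, 19957054 to 20009145), was at 6.91, 6.75, 6.51, 5.14 and 4.82 FPKM in Controls 1 to 5. In R6/2 1 to 5 it was at 7.37, 8.88, 10.7, 12.4 and 12.7 FPKM. The groups did not overlap, although R6/2 1 lay close to the highest control. The mean rose from 6.03 ± 0.970 to 10.4 ± 2.28 FPKM (SD, n = 5), a log2 change of 0.69 (SE 0.157, limma adjusted p = 0.0173). Its exons share 108 of 9566 bases with Hps3 on the opposite strand. Markers of cortical neurons summed to 51.5 to 84.7 FPKM in controls and 63.2 to 118 FPKM in R6/2. With their mean log2(FPKM + 1), rather than their sum, as a covariate, the log2 change of Cp was 0.81 (limma adjusted p = 0.0585). That of Serpina3n was 1.02 (limma adjusted p = 0.0415). In groups without overlap, Serpina3n and Cp stand beside 4.5% of tested genes that were higher and 8.58% that were lower in the same way.

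Cp is also abundant in the choroid plexus, the secretory tissue of the ventricle beside the striatum, so its level is given beside choroid plexus markers. The 6 markers (Ttr, Folr1, Kl, Clic6, Prlr and Sostdc1) summed to between 15.2 and 571 FPKM in controls and between 29.1 and 472 FPKM in R6/2, and 0 of the 6 passed the test. In controls, in order of this signal (15.2, 77.0, 102, 208 and 571 FPKM in Controls 5, 4, 3, 1 and 2), Cp was at 4.82, 5.14, 6.51, 6.91 and 6.75 FPKM. In R6/2, in the same order (29.1, 139, 235, 348 and 472 FPKM in R6/2 4, 1, 5, 3 and 2), Cp was at 12.4, 7.37, 12.7, 10.7 and 8.88 FPKM. Cp was thus higher in the controls with more of the signal, while the R6/2 libraries showed no such order. With the mean log2(FPKM + 1) of the 6 markers, rather than their sum, as a covariate, the log2 change for Cp was 0.68 (limma adjusted p = 0.0273). That for Serpina3n was 1.07 (limma adjusted p = 0.00594). Ependymal markers, of the ventricle lining, summed to 8.64 to 16.8 FPKM in controls and 8.82 to 16.8 FPKM in R6/2, and 0 of 5 tested passed.

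**Figure D2:**
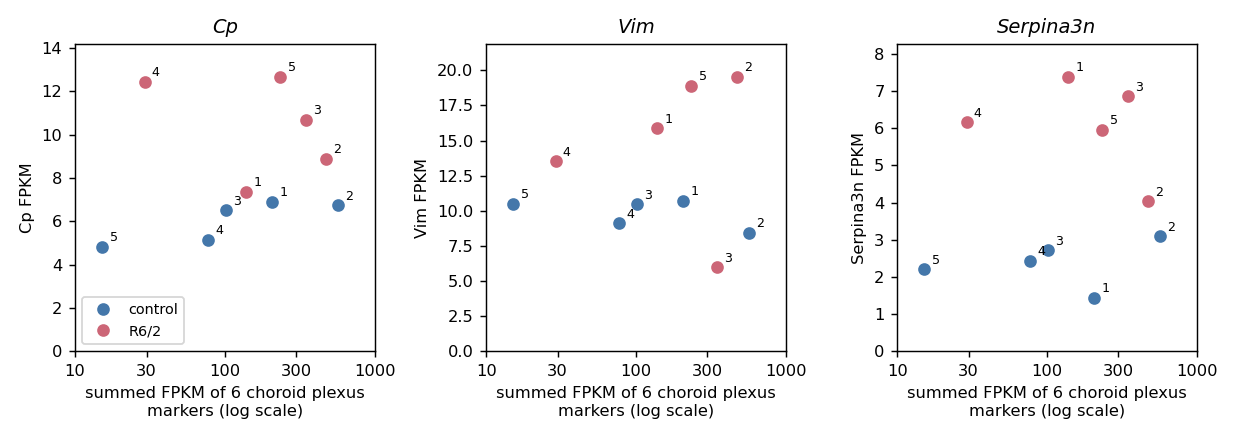
FPKM of Cp, Vim and Serpina3n (vertical axes, linear, from 0) against the summed FPKM of 6 choroid plexus markers (horizontal axes, log scale), 1 point per library, numbered by replicate, control in blue and R6/2 in red. Cp lies between 4.82 and 6.91 FPKM in controls, where it is higher in the libraries with more choroid plexus signal, and between 7.37 and 12.7 FPKM in R6/2, where it does not follow that order.

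The intermediate filament genes, which give reactive astrocytes their enlarged skeleton, did not pass. Gfap, the standard marker of reactive astrocytes (ENSMUSG00000020932.14, chromosome 11, 102887336 to 102900912), was at 5.22, 5.54, 4.76, 4.03 and 6.68 FPKM in controls and at 5.39, 4.40, 5.95, 7.47 and 5.51 FPKM in R6/2. The groups overlapped, with 1 R6/2 library above all controls. The log2 change was 0.11 (95% confidence interval -0.21 to 0.43, limma adjusted p = 0.67). In controls Gfap stood at the level of Cp and above Serpina3n, with ranges apart from the latter, whereas in R6/2 the mean of Serpina3n, 6.08 FPKM, was above that of Gfap, 5.74 FPKM, with overlapping ranges.

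Vim, which encodes vimentin, the filament partner of Gfap that immature and reactive astrocytes and also vessel, microglial and ependymal cells make (ENSMUSG00000026728.9, chromosome 2, 13573927 to 13582826), was at 10.7, 8.43, 10.5, 9.11 and 10.5 FPKM in controls. In R6/2 it was at 15.9, 19.5, 6.0, 13.5 and 18.9 FPKM. In R6/2, 4 of the 5 libraries were above every control and R6/2 3 was below every control, and the SD was 5.46 FPKM in R6/2 against 1.02 FPKM in controls. The log2 change was 0.45 (95% confidence interval -0.15 to 1.05, limma adjusted p = 0.317). Without R6/2 3 it was 0.72 (limma adjusted p = 0.00662). Vim had the highest mean of the 10 genes in both groups, and its range was apart from those of all others in controls and overlapped those of Cp, Serpina3n and Gfap in R6/2.

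Of 12 filament relatives and linkers, 8 were tested, and 0 rose and 2 fell (median log2 change -0.13, and -0.05 over all 12 without the filter). Both that fell are neurofilament genes of neurons: Nefm was at 69.5 ± 13.0 FPKM in controls and 34.0 ± 5.17 FPKM in R6/2 (SD, n = 5, limma adjusted p = 0.00139), and Nefl at 70.2 ± 6.19 and 56.4 ± 5.79 FPKM (limma adjusted p = 0.0491). Their exons share 1108 bases on opposite strands, and the call of Nefl was lost in 17 of 22 other settings (limma adjusted p up to 0.213). Nes, which encodes nestin and also marks reactive and immature astrocytes, was under the tested level at 0.667 ± 0.267 FPKM in controls and 0.720 ± 0.0994 FPKM in R6/2 (SD, n = 5).

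Osmr encodes the oncostatin M receptor, which pairs with the shared subunit gp130 to pass signals of the interleukin-6 family (ENSMUSG00000022146.12, chromosome 15, 6813577 to 6874969). It was at 1.08, 1.49, 1.19, 1.31 and 1.70 FPKM in controls and at 1.36, 1.03, 1.71, 2.16 and 1.91 FPKM in R6/2. The groups overlapped, and R6/2 2 was the lowest of all 10 libraries. The log2 change was 0.15 (95% confidence interval -0.21 to 0.51, limma adjusted p = 0.587).

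**Figure D3:**
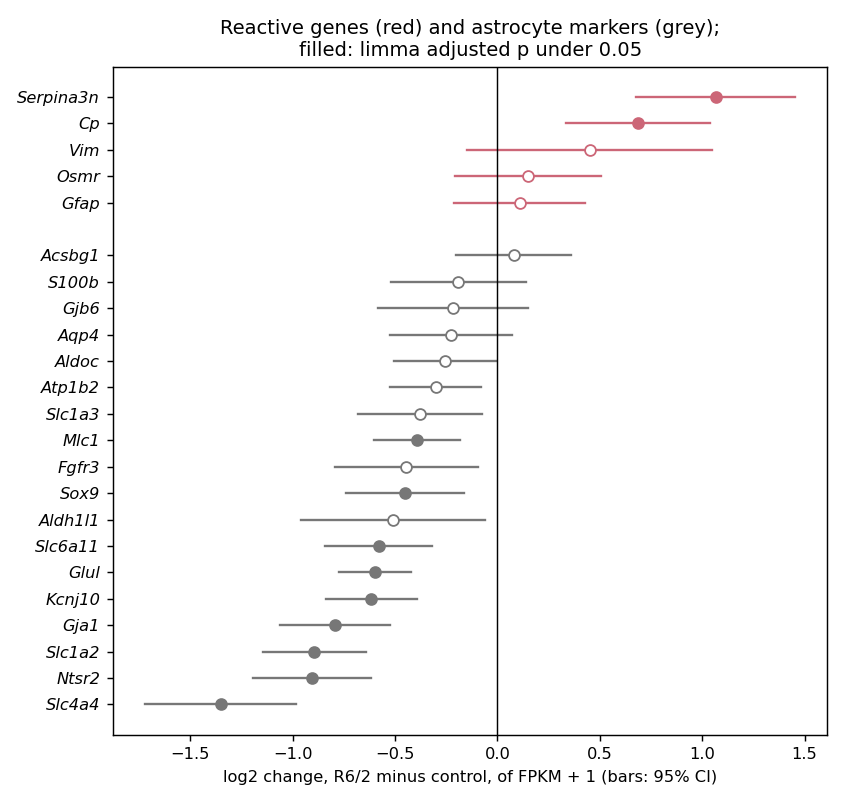
Log2 change of FPKM + 1, R6/2 minus control (horizontal axis), with 95% confidence intervals not adjusted for the number of genes, for the 5 tested reactive astrocyte genes (red) and 18 astrocyte markers (grey). Filled points passed limma at an adjusted p under 0.05, and 17 of the 18 markers lie below 0 while the 5 reactive genes shown lie above it. The reactive genes under the tested level are not shown. Of these, Cd44 (-0.80) and Steap4 (-0.15) lay below 0, and S1pr3 (0.15), Timp1 (0.11) and Lcn2 (0.01) above it.

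Of the 5 genes under the tested level, Cd44, S1pr3 and Timp1 had a value above 0 in every library, Steap4 was listed at 0 in 1 library and Lcn2 in 8. Cd44, the hyaluronan receptor of cell surfaces (ENSMUSG00000005087.17, chromosome 2, 102811141 to 102901665), was at 0.530, 0.616, 1.62, 0.798 and 2.54 FPKM in controls and at 0.154, 0.193, 0.213, 0.117 and 0.371 FPKM in R6/2. All R6/2 values lay below all control values, and Controls 3 and 5 stood well above the other controls. The R6/2 mean, 0.210 ± 0.0976 FPKM, was 0.172 of the control mean, 1.22 ± 0.855 FPKM (SD, n = 5). In a fit without the filter, which tested 29024 genes and called 2.18% higher and 4.61% lower, the log2 change was -0.80 (SE 0.227, limma adjusted p = 0.0709). With a pseudocount of 0.1 FPKM in place of 1 FPKM in that fit, it was -1.92 (limma adjusted p = 0.0331), where 4.79% of genes were called lower. Among all genes with a value above 0 in any library, 5.29% were lower in every R6/2 library than in every control, and 8.18% did not overlap in either direction.

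S1pr3 encodes a receptor for the lipid signal sphingosine 1-phosphate (ENSMUSG00000067586.3, chromosome 13, 51408639 to 51422797). It was at 0.929, 0.888, 0.431, 0.650 and 0.308 FPKM in controls and at 0.594, 0.637, 1.07, 0.722 and 1.05 FPKM in R6/2. Timp1, an inhibitor of matrix metalloproteinases that reactive astrocytes secrete (ENSMUSG00000001131.11, chromosome X, 20870166 to 20874735), was at 0.172, 0.417, 0.170, 0.431 and 0.262 FPKM in controls and at 0.404, 0.251, 0.517, 0.379 and 0.389 FPKM in R6/2. The groups overlapped for both genes, and R6/2 3 was the highest library for each. The fit without the filter gave log2 changes of 0.15 for S1pr3 and 0.11 for Timp1 (limma adjusted p = 0.604 and 0.556).

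Steap4, a metalloreductase that hands iron and copper ions to transporters (ENSMUSG00000012428.9, chromosome 5, 7960457 to 7982213), was at 0.753, 0.222, 0.117, 0.0496 and 0.0558 FPKM in controls. It was at 0.0862, 0.289, 0.0397 and 0.0895 FPKM in R6/2 1, 2, 3 and 5 and listed at 0 in R6/2 4. Control 1 was far above the rest, and the groups overlapped. Lcn2, a secreted lipocalin that binds iron carriers and is among the most inducible genes of inflamed astrocytes (ENSMUSG00000026822.14, chromosome 2, 32384633 to 32388252), was at 0.210 FPKM in Control 2 and 0.272 FPKM in R6/2 1 and listed at 0 in the other 8 libraries. An exact 0 in this table can be a failed estimate, since 15 of 79 ribosomal protein genes, which every cell uses, were at or next to 0 in at least 1 library, so Lcn2 is only said to be listed at 0. In the fit without the filter the limma adjusted p was 0.604 for Steap4 and 0.953 for Lcn2.

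**Figure D4:**
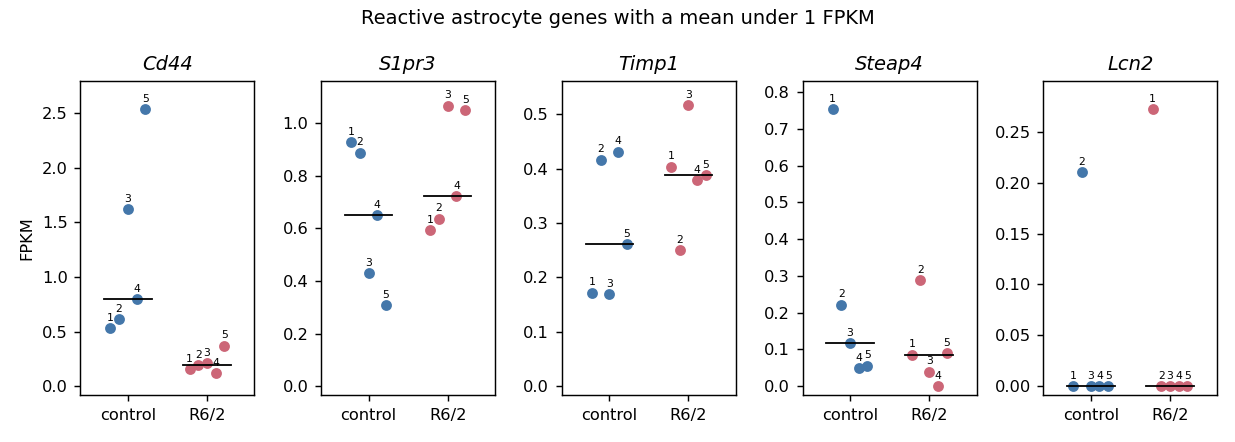
FPKM (vertical axes, linear) of the 5 reactive astrocyte genes with a mean under 1 FPKM in 5 control (blue) and 5 R6/2 (red) libraries, numbered by replicate, with a line at each group's median. Cd44 lies between 0.530 and 2.54 FPKM in controls and between 0.117 and 0.371 FPKM in R6/2, and Lcn2 is listed at 0 in 8 of the 10 libraries.

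The libraries did not rank alike across the genes. R6/2 2 had the lowest R6/2 value for Serpina3n, Gfap, Osmr and Timp1, but the highest for Vim and Steap4. R6/2 4 had the highest value of all 10 libraries for Gfap and Osmr, and R6/2 3, lowest for Vim, was the highest for Timp1 and S1pr3. By the root mean square difference of log2 profiles, each centred on its own mean over the 10 libraries, the genes most like Gfap were Brd1 (0.11), Gpr62 (0.11) and Fads3 (0.11), and none of these passed the test. Those most like Serpina3n were Cib2 (0.17), Flot1 (0.22) and Rdh12 (0.22), each of which was called higher. These likenesses are descriptions over 10 libraries that share the group difference.

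Astrocyte markers of the resting state were lower in the same libraries. Of 18 markers, all tested, 9 fell and 0 rose (median log2 change -0.45). Slc4a4, a bicarbonate transporter gene, was at 62.1 ± 12.3 FPKM in controls and 23.8 ± 5.34 FPKM in R6/2 (SD, n = 5, limma adjusted p = 0.000575). Slc1a2, the main glutamate transporter gene, was at 392 ± 30.6 FPKM and 212 ± 33.8 FPKM (limma adjusted p = 0.000668). The summed level of the 18 was 1367 to 1623 FPKM in controls and 950 to 1127 FPKM in R6/2, without overlap. Over the other settings 6 to 10 of the 18 fell, with 6 where cortical neuron signal was a covariate. Measured against the mean log2 level of the 18 markers in its own library, Gfap ranged from -2.44 to -1.93 in controls and from -1.87 to -1.32 in R6/2, and Serpina3n from -3.65 to -2.82 and from -1.98 to -1.21. The mean of the markers itself fell, from 4.77 to 4.94 in controls to 4.28 to 4.42 in R6/2, so this scale lifts genes that did not change. On it 4 of the 5 tested genes (Gfap, Serpina3n, Cp and Osmr) were higher without overlap and 0 were lower. Of all genes tested, 35.1% were higher and 2.15% lower in the same way. Lcn2, Timp1 and S1pr3 were also higher on it, though Lcn2 was listed at 0 in most libraries, and Vim, Cd44 and Steap4 overlapped. The position on this scale is thus no result about the 10 genes.

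In the other lists of reactive astrocyte genes, 0 members passed as higher, with or without the filter (limma). Among 4 others listed beside these 10 genes, only Hsbp1 was tested. It was at 165 ± 30.3 FPKM in controls and 176 ± 14.5 FPKM in R6/2 (SD, n = 5, limma adjusted p = 0.587). Hspb1, a different gene with a similar symbol, is also on that list. It was under the tested level at 0.674 ± 0.353 FPKM in controls and 0.739 ± 0.327 FPKM in R6/2 (SD, n = 5). Of 12 genes usually listed for astrocytes exposed to inflammatory signals, 6 were tested, and 0 rose and 1 fell (median log2 change 0.01). The largest log2 change of the 6 was that of H2-D1, 0.85, which did not pass (limma adjusted p = 0.115). Without the filter the median over all 12 was 0.21, and 0.28 at the lower pseudocount. The one that fell was Amigo2, a cell adhesion gene, at 1.67 ± 0.331 FPKM in controls and 0.837 ± 0.163 FPKM in R6/2 (SD, n = 5, limma adjusted p = 0.0407), a call lost in 12 of 21 other settings (limma adjusted p up to 0.241). Of 12 genes usually listed for astrocytes after ischaemia, 3 were tested and 0 passed (median log2 change -0.51). Without the filter the median over 11 of them was -0.02, and 0.08 at the lower pseudocount. The prostaglandin synthase gene Ptgs2 differed by -0.75 and Tm4sf1 by -0.51 on the log2 scale, and neither passed (limma adjusted p = 0.245 and 0.264).

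Of 21 genes of the cytokine pathway that acts through Osmr, 11 were tested (median log2 change -0.01). Jak2, a kinase gene of the receptors, was at 9.93 ± 0.788 FPKM in controls and fell to 6.76 ± 0.734 FPKM in R6/2 (SD, n = 5); its limma adjusted p was 0.00519, and 0.0533 with the cortical covariate. Stat3, the factor most tied to Gfap induction, was at 11.2 ± 2.60 FPKM in controls and 11.0 ± 1.74 FPKM in R6/2 (SD, n = 5, limma adjusted p = 0.991). The ligand genes Il6, Osm and Clcf1 were listed at 0 in all libraries, and Socs3, a feedback inhibitor gene of the pathway, was at most at 0.245 FPKM in any library.

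Of 21 genes of inflammatory and TGF-beta signalling upstream of astrocyte reactivity, 11 were tested, and 1 rose and 1 fell (median log2 change -0.04). Nfkbia, the inhibitor gene that NF-kappa B induces as its own brake, was at 2.73 ± 0.948 FPKM in controls and rose to 5.73 ± 1.71 FPKM in R6/2 (SD, n = 5, limma adjusted p = 0.0242). Its groups overlapped, and it did not pass in 5 of 21 other settings (limma adjusted p up to 0.256). These were the fits without Control 1, Control 3, R6/2 3 or R6/2 4 and the fit with the cortical covariate. Smad3, a signal carrier gene of TGF-beta, was at 47.5 ± 7.71 FPKM in controls and fell to 22.5 ± 5.48 FPKM in R6/2 (SD, n = 5); its limma adjusted p was 0.00285, and 0.0502 with the cortical covariate. The cytokine genes Il1a, Il1b and Tnf were at most at 0.376 FPKM in any library.

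Among partners of the surface receptors a few genes were called, in both directions, where over all genes tested 5% were called higher and 9.11% lower. Around S1pr3, 1 of 8 tested genes of sphingosine 1-phosphate rose and 3 fell, of 12 (median log2 change -0.27, and -0.01 over all 12 without the filter). S1pr1, a receptor gene for the same lipid, was at 18.3 ± 3.02 FPKM in controls and fell to 10.8 ± 1.72 FPKM in R6/2 (SD, n = 5, limma adjusted p = 0.00622). The phosphatase genes Plpp3 and Sgpp2 had log2 changes of -0.73 and -0.68 (limma adjusted p = 0.00263 and 0.00883). With the cortical covariate, S1pr1 and Sgpp2 no longer passed (limma adjusted p = 0.0599 and 0.0795). The exporter gene Spns2 rose by 0.47 (limma adjusted p = 0.0416), a call lost in 11 of 21 other settings (limma adjusted p up to 0.155). Around Cd44, 1 of 8 tested among 12 hyaluronan and linker genes passed: Rdx, whose product ties membrane receptors to actin, was at 10.8 ± 0.710 FPKM in controls and rose to 13.8 ± 0.815 FPKM in R6/2 (SD, n = 5, limma adjusted p = 0.0144). The median log2 change of the 8 was -0.15, and -0.05 over all 12 without the filter.

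Around Timp1, 3 of 10 tested among 14 inhibitors and metalloproteinases fell and 0 rose (median log2 change -0.24). Mmp17, a membrane-bound metalloproteinase gene, was at 13.3 ± 1.16 FPKM in controls and fell to 7.42 ± 0.385 FPKM in R6/2 (SD, n = 5, limma adjusted p = 0.000192). Adamts4, a proteoglycan-cutting protease gene, changed by -0.61 (limma adjusted p = 0.00451, and 0.0595 with the cortical covariate). The sheddase gene Adam17 fell by 0.37 (limma adjusted p = 0.0491), a call lost in 19 of 21 other settings (limma adjusted p up to 0.302). Around Cp, Steap4 and Lcn2, 0 of 9 tested among 15 iron genes passed (median log2 change 0.11), with the smallest p for the transferrin gene Trf, at -0.36 on the log2 scale, and the ferritin gene Ftl1, at 0.25 (limma adjusted p = 0.181 and 0.21). The lipocalin receptor gene Slc22a17 differed by 0.16 on that scale and did not pass (limma adjusted p = 0.114), and Lrp2 was under the tested level.

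The labels and the other cell types were checked in the same table. Gm12695, known as the locus where the R6/2 transgene sits, was listed at 0 in 4 controls, at 0.0688 FPKM in Control 1 and at 0.699 to 2.34 FPKM in R6/2. Spiny neuron markers, which define striatum, were present, and 8 of 8 fell (median log2 change -2.68). The cortical neuron markers rose in 2 and fell in 1 of 6, those of oligodendrocytes fell in 6 of 8, and those of microglia fell in 1 of 11 tested (P2ry12). Markers of precursor cells beside the ventricle rose in 1 (Dcx) and fell in 1 (Dlx1) of 4 tested, blood cell genes fell in 2 (Hba-a1 and Hbb-bs) of 3 tested, and none of 10 vessel and 1 fibroblast marker tested passed. Microglia markers summed to 85.9 to 99.5 FPKM in controls and 71.8 to 82.4 FPKM in R6/2, and vessel markers to 78.5 to 94.0 and 69.3 to 81.0 FPKM. The part of these cell types in the changes of the 10 genes was not tested. Mitochondrial transcripts held 28.1 to 33.8% of all FPKM in controls and 22.1 to 29.9% in R6/2, and protein-coding genes outside the mitochondrion summed to 211209 to 219426 and 193203 to 202906 FPKM, without overlap. All FPKM summed to 1638360 to 2309120 in controls, with Control 5 the highest, and 1545170 to 1791770 in R6/2, so other transcripts held most of the total. Sequencing depth cannot be read from FPKM values and is unknown.

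Across 21 or 22 other settings, Serpina3n kept its direction and passed in all 21, and Cp kept its direction in all 22 and passed in 20. Gfap and Osmr passed in none of theirs, and Vim passed in 1.

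**Figure D5:**
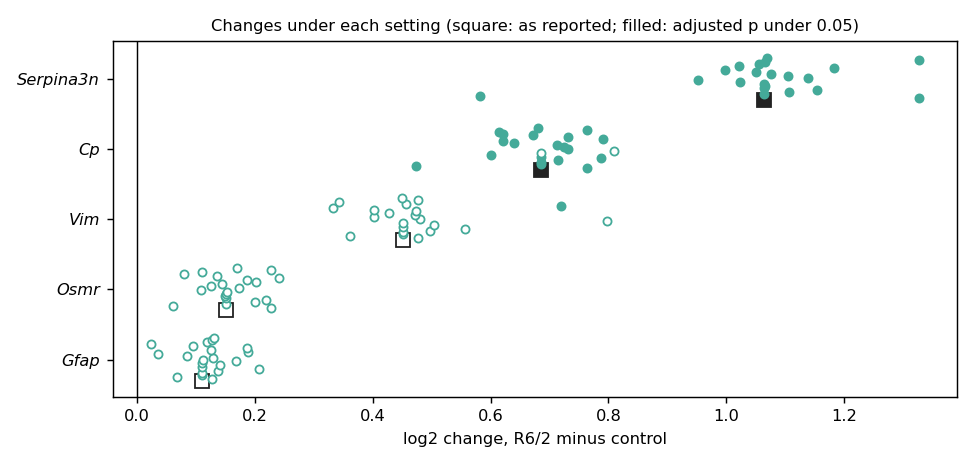
Log2 change, R6/2 minus control (horizontal axis), of the 5 tested reactive astrocyte genes under the reported setting (square) and each other setting (circles), filled where the limma adjusted p was under 0.05. Serpina3n ranges from 0.58 to 1.33 and is filled throughout, while Gfap ranges from 0.02 to 0.21 and is open throughout.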

How the data were processed

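The authors deposited 1 table of FPKM values, 1 column per library. The build GRCm38 and the tools STAR 2.4.0, Cufflinks and Cuffdiff are named per the submitters' processing notes; what each did, which annotation and strand setting were used, and how libraries were scaled were not stated there. RNA was extracted with a column kit for fatty tissue, amplified (NuGEN Ovation) and prepared as Nextera libraries, per the labels' protocols. A second file named in the labels was not analysed here. Depth is unknown. Columns were tied to samples by name (0 left without a sample). Symbols came from GENCODE M21 by stable Ensembl ID (47220 of 47632 matched).

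Genes averaging 1 FPKM or more were fitted with limma 3.58.1 (R 4.3.3, mean-variance trend, two-sided) on log2(FPKM + 1), which understates changes of low genes, with Benjamini-Hochberg adjustment over all 15905. The model was tested on simulated data. Replicate numbers are not stated to pair samples, so no block was used in the main fit. Same-numbered libraries had deviations correlated between -0.05 and 0.05, which cannot exclude pairing. The 10 genes and the 23 other lists were chosen with earlier results of these data known. Named are the 10 genes, and in each pathway list up to 4 passing genes or the 2 with the smallest p. Also named are the 10 Serpina3 relatives examined, and in marker lists the 2 with the smallest p, of which those described. The 3 genes most like Gfap and Serpina3n are named as well. Stat3, Socs3, Nes, Lrp2 and the cytokine and ligand genes were named for their roles after their values were seen, and Hspb1 for its symbol. Alternatives were other pseudocounts, filters, scalings, variance models, array weights, a replicate block, cortical and choroid plexus covariates, and leaving out each library. The result of 1 gene of the cytokine pathway list is not reported here.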

Additional observations from a re-analysis of the deposited data

Results flagged for a closer look

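In 20 groups of 5 libraries (the 10 genes in controls and in R6/2), 3 had a library that stood apart. This was judged by its gap to the nearest other library relative to the group's range. The rule flags about 1 in 20 groups by chance only where values are spread normally, which values near 0 are not. A group with a single value above 0, as in both Lcn2 groups, is always flagged, so the 3 flags are not an excess over chance. Steap4 was at 0.753 FPKM in Control 1, where the other controls lay between 0.0496 and 0.222 FPKM. Lcn2 was at 0.210 FPKM in Control 2 and at 0.272 FPKM in R6/2 1 and listed at 0 in the other libraries of each group.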

How the results depend on the processing

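All directions of the 10 genes held in every setting that gave a value, 2 settings for the 5 genes under the tested level and 21 or 22 for the others; Serpina3n and Osmr fell under a minimum mean of 5 FPKM. Genes called higher numbered 795, and 1522 after rescaling protein-coding genes to one total, 370 with the replicate block and 207 with the cortical neuron signal; genes called lower numbered 1449, and 692 with the cortical neuron signal. Leaving out each library gave 532 to 871 higher and 1144 to 1493 lower genes. Of the calls 64.6% were lower, against 53.5% after quantile normalization and 42.7% after rescaling, after which the median log2 change over all tested genes was 0.093. Among the 10 genes, 2 were called higher, and 1 with a minimum mean of 5 FPKM (fewer genes tested), 1 with the replicate block and 1 with the cortical neuron signal; leaving out each library gave 2 to 3, and 0 lower throughout. Cd44 was called lower (1 gene) without the filter at a pseudocount of 0.1 FPKM, an alternative chosen, like the choroid plexus signal, after seeing the data. The replicate block left the log2 change of Cp at 0.69 (limma adjusted p = 0.0959), and among the 10 genes it changed no other call; outside them it ended those of S1pr1, Sgpp2 and Rdx (limma adjusted p = 0.0545, 0.0531 and 0.0868), among others; causes were not tested. Depth is unknown, so no counting limit can be set for the genes near 0.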

Other observations

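The 10 genes together summed to 24.0 to 29.1 FPKM in controls and 33.0 to 46.8 FPKM in R6/2, without overlap. Within that sum, Vim held 36.1 ± 3.29% in controls and 36.1 ± 11.9% in R6/2 (SD, n = 5), Cp 22.1 ± 3.37% and 26.0 ± 5.27%, Serpina3n 8.79 ± 2.39% and 15.4 ± 4.36%, and Gfap 19.1 ± 2.52% and 14.4 ± 3.13%. The sum thus rests mostly on Vim, Cp, Gfap and Serpina3n, and these shares were not tested. Fbln5, a matrix gene of the inflammatory astrocyte list, lay under the tested level. It was at 0.234 to 0.625 FPKM in controls and 0.0229 to 0.188 FPKM in R6/2. Its limma adjusted p was 0.0374 without the filter, and 0.0653 with a pseudocount of 0.1 FPKM as well. It was singled out after its values were seen, as were Iigp1, Gbp2, Psmb8 and H2-D1 of the same list. Their R6/2 means were 2.74, 2.33, 2.03 and 1.98 times the control means, with overlapping groups. None of them passed without the filter (limma adjusted p = 0.269, 0.271, 0.246 and 0.188).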
